A study of Homo sapiens with 12 samples.

Results

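Transcribed pseudogenes are disabled copies or relics of genes that are still made into RNA. The 100 described here were taken from 2 glioblastoma cell lines in which XRN2 was silenced. They were selected on their read counts among the 1227 autosomal genes that the deposited tables annotate as transcribed unprocessed, processed or unitary pseudogenes, as the 100 with the highest sum of unique exon reads (exon reads that match 1 place in the genome) over 12 libraries. The tables hold 58174 genes in all. Of the 1227 candidates, 491 had at least 1 unique exon read and 736 had none, and the 100 members held 87.5% of the candidates' unique exon reads. The level chose the members, so their high levels are a description only. The 3 members just inside the limit were SORD2P, RPL23AP7 and PARGP1 with 227, 225 and 224 reads, and the 3 just outside it were HILS1, UBE2Q2P1 and UBE2Q2P2 with 217, 217 and 212 reads.

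LN229 and U251 are established human glioblastoma lines. Each was reverse transfected with siRNA against XRN2 (siXRN2), with a control siRNA (siNT) or without siRNA (mock), and RNA was taken after 72 hours from 2 libraries per group. No genotype or allele is given for the lines in the labels, and the growth media of LN229 and U251 differed. Nothing says that the 2 libraries of a group came from separate cultures, so a p-value here reflects the spread between these libraries only, and that spread may be technical.

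An unprocessed pseudogene arose by duplication of DNA and can keep introns, a processed pseudogene was copied back from RNA, and a unitary pseudogene is a gene that lost its coding function without leaving a working copy in the same genome. Many such RNAs carry premature stop codons and can be degraded in the cytoplasm when ribosomes meet those stops, and some are kept as non-coding RNAs. XRN2 is a nuclear 5′ to 3′ exoribonuclease that degrades the RNA left behind RNA polymerase II after cleavage at a poly(A) site. Because pseudogenes resemble other genes, a read from one often matches several places, and the share of reads that can be placed decides how well it can be measured.

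Of the 100 members, 82 were unprocessed, 10 processed and 8 unitary pseudogenes, and 22 lay on chromosome 7. Members had a median of 20 annotated exons and a median exon length of 4032 bases. For 47 members the symbol names a parent gene in the tables, with 35 different parents. Their exon reads were 62.4% unique, against 87.7% over all genes. The members differed widely in this: 13 had unique reads only, 29 were above 95% and 23 were below 50%. The lowest shares were those of GTF2IP1 (6.68%), GOLGA2P7 (8.25%), DUXAP10 (11.1%), GTF2IP4 (13.6%) and ZNF542P (17.4%). Unitary members had a median unique share of 99.1%, against 79.5% for unprocessed and 80.7% for processed members.

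Stretches of 60 bases from 4 members and from the coding gene that each aligns to show how few bases separate a pseudogene from its relative. Each pair was taken from GENCODE release 29 transcripts (GRCh38) as the stretch within 1 exon with the most mismatches, and capitals mark the bases that differ within the pair. CCDC144CP lies at chr17:20321373-20321432 (plus strand) and CCDC144A, a coiled-coil gene, at chr17:16690457-16690516 (plus strand).
CCDC144CP: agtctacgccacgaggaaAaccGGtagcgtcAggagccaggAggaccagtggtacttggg
CCDC144A: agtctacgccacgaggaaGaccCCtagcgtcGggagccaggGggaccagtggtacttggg
USP32P3 lies at chr17:20426898-20426957 (plus strand) and its parent USP32, a ubiquitin-specific protease gene, at chr17:60183287-60183346 (minus strand).
USP32P3: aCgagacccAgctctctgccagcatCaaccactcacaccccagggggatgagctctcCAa
USP32: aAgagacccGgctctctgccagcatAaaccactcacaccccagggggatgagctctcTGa
HERC2P2 lies at chr15:22561662-22561721 (plus strand) and its parent HERC2, a ubiquitin ligase gene, at chr15:28213810-28213869 (minus strand).
HERC2P2: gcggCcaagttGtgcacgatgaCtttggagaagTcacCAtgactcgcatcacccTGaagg
HERC2: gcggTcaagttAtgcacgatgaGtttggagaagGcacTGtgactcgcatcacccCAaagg
GTF2IP4 lies at chr7:73200492-73200551 (plus strand) and its parent GTF2I, the gene of the transcription factor TFII-I, at chr7:74753889-74753948 (plus strand).
GTF2IP4: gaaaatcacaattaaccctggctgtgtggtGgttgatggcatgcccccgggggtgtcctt
GTF2I: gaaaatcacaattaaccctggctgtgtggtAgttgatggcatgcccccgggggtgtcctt

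Over the highest-scoring alignment of each pair CCDC144CP was 98.2% identical to CCDC144A over 2827 bases and USP32P3 was 96.2% identical to USP32 over 1172 bases. HERC2P2 was 96.9% identical to HERC2 over 4725 bases and GTF2IP4 was 99.8% identical to GTF2I over 3205 bases with 5 mismatches. In a separate search of all coding transcripts, used for the groups by identity below, CCDC144CP aligned to CCDC144A at 99.1% over 2389 bases. FER1L4 aligned to its relative FER1L5 at 68.5% over 375 bases, and all of its 2826 exon reads were unique. Of the 90 members with at least 300 bases aligned to a coding transcript, the 7 that were 99% or more identical had a median unique share of 58.0%, the 18 at 97 to 99% one of 53.8%, the 38 at 90 to 97% one of 88.6% and the 27 below 90% one of 89.6%. The 10 members without such an alignment had a median of 97.2%. Across the 90 members Spearman's rho between identity and unique share was -0.35, a description, since some alignments run over repeats and members of a family share a parent. GOLGA2P7 went against it with 76.9% identity to GOLGA2, a Golgi matrix gene, and a unique share of 8.25%.

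**Figure D1:**
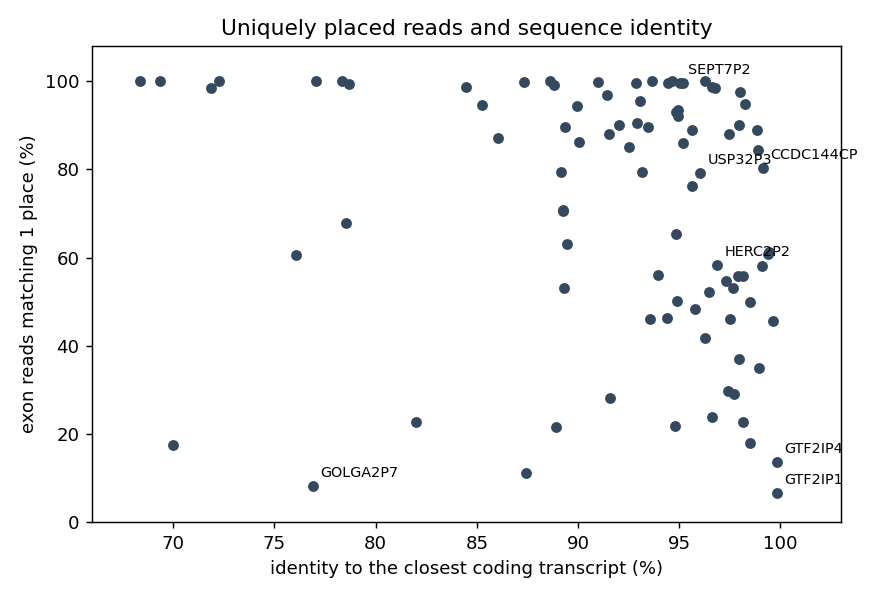
Share of each member's exon reads that match 1 place (vertical axis, %) against identity to the closest coding transcript (horizontal axis, %), 1 point per member with at least 300 aligned bases (90 members). Shares of 6.68% to 13.6% are seen for GTF2IP1 and GTF2IP4 at the right edge, while GOLGA2P7 is low at 76.9% identity.

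The libraries held 4167694 to 6552755 unique exon reads, and the members' share of them ranged from 0.132% to 0.171%. XRN2, the targeted gene, had 37.9 and 29.4 CPM (TMM-scaled counts of unique exon reads per 1000000) in LN229 siXRN2, against 235 and 277 CPM in siNT and 260 and 266 CPM in mock. In U251 it had 34.8 and 29.5 CPM in siXRN2, against 163 and 150 CPM in siNT and 156 and 161 CPM in mock. The fitted ratio of siXRN2 to siNT was 0.132 in LN229 and 0.205 in U251 (edgeR quasi-likelihood test, adjusted p = 1.2e-06 and 2.5e-05). Of the glial and astrocytoma markers, NES, VIM and CD44 had at least 382 CPM in every library, S100B had 336 to 663 CPM in LN229 and 16.8 to 24.95 CPM in U251, GFAP reached 2640 to 7704 CPM in U251 and 1.21 to 3.76 CPM in LN229, and SOX2 and OLIG2 did not exceed 1.16 CPM anywhere. The epithelial markers EPCAM and CDH1, the leukocyte marker PTPRC and the globin HBB did not exceed 0.364 CPM. CD68, PECAM1, VWF, RBFOX3, SYT1, MBP and PDGFRB, of macrophages, endothelium, neurons, oligodendrocytes and pericytes, reached 8.11, 2.00, 5.23, 1.61, 21.9, 17.4 and 30.2 CPM at most. COL1A1, a collagen gene of mesenchymal cells, reached 462 CPM in LN229, and its part in the results was not tested. 2 libraries stood apart from their partners: LN229 siNT 1, in which introns held 5.18% of unique gene reads against 7.14% to 8.94% in the other 11, and U251 mock 2. Between the 2 libraries of a group the chi-square statistic per gene was 13.8 for LN229 siNT and 19.1 for U251 mock, against 1.37 to 5.17 for the other groups. LN229 siNT 1 held the lowest of the 6 LN229 values for 43 of the 100 members, against 30.7% of all 13094 genes tested.

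After XRN2 silencing 3 of the 100 pseudogenes rose past the test in at least 1 line: FER1L4 in LN229, and the neighbouring USP32P3 and CCDC144CP in U251. FER1L4 was 4.21-fold of control siRNA in LN229, and USP32P3 and CCDC144CP were 2.68-fold and 3.03-fold of it in U251. None of the 100 fell past the test in either line. Of all 13094 genes tested, 3.86% passed in LN229, 1.38% as higher, and 0.0305% passed in U251. These 3 genes were picked as examples with earlier results of these data known, so their changes carry no independent support from having been picked.

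FER1L4 belongs to the ferlin family of membrane genes, has lost its coding function in humans, and its RNA has been studied as a non-coding RNA in glioma and other tumours. It lies on chromosome 20 at 35558737 to 35607562 on the minus strand and has 76 annotated exons. In LN229 it had 9.15 and 17.3 CPM in siXRN2, 3.06 and 3.08 CPM in siNT and 2.73 and 2.89 CPM in mock. In U251 it had 113 and 126 CPM in siXRN2, 70.0 and 76.8 CPM in siNT and 63.6 and 40.4 CPM in mock. Both siXRN2 libraries lay above all 4 control libraries in each line, and the 2 LN229 siXRN2 libraries differed from each other by more than the lower one did from its controls. The log2 fold change of siXRN2 over siNT was 2.07 ± 0.37 (SE) in LN229 (edgeR quasi-likelihood test, adjusted p = 0.0136). It was 0.70 ± 0.22 in U251, which did not pass (unadjusted p = 0.0073, adjusted p = 1.00). Against mock it was 2.20 ± 0.35 in LN229 (adjusted p = 0.0097) and 1.20 ± 0.23 in U251 (adjusted p = 0.115). The mean of both lines against siNT was 1.39 ± 0.21 (adjusted p = 0.0177). The difference between the lines, LN229 minus U251, was 1.37 ± 0.44 and did not pass (adjusted p = 0.707). The LN229 call was lost without siXRN2 replicate 2 or siNT replicate 1 (adjusted p = 0.187 and 0.0846), with log2 fold changes of 1.57 and 2.10. It was also lost when LN229 libraries were fitted alone or the compared groups alone (edgeR adjusted p = 0.0994 and 0.0833), with log2 fold changes of 2.10 and 2.11. The call over mock was lost without siXRN2 replicate 2, mock replicate 1 or mock replicate 2 of LN229 (adjusted p = 0.151, 0.178 and 0.115). The call in the mean was lost without siXRN2 replicate 2 of LN229 (adjusted p = 0.068), and without siXRN2 replicate 2 or either siNT library of U251 (adjusted p from 0.0838 to 0.106).

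Junction reads, which span spliced exons, moved with the exon reads of FER1L4: there were 45 and 60 in LN229 siXRN2, 9 and 13 in siNT and 11 and 15 in mock. In U251 there were 465 and 436 in siXRN2, 257 and 254 in siNT and 199 and 154 in mock. They are part of the exon reads and no separate measurement. Unique intron reads of FER1L4 in U251 were 114 and 100 in siXRN2, 96 and 81 in siNT and 59 and 31 in mock, and its intron contrast against siNT passed in neither line (adjusted p = 0.637 in LN229 and 1.00 in U251). The genes around FER1L4 did not pass the test. ERGIC3, whose end lies 1103 bases from it on the opposite strand, had log2 fold changes of -0.39 in LN229 and -0.06 in U251. SPAG4, on its other side, had 0.07 and 0.08, and CPNE1 had -0.18 and 0.08.

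USP32P3 is an unprocessed copy of part of USP32 and lies on chromosome 17 at 20415547 to 20431008 on the plus strand. In U251 it had 57.0 and 63.8 CPM in siXRN2, 23.5 and 21.6 CPM in siNT and 19.5 and 14.8 CPM in mock. In LN229 it had 1.71 and 1.81 CPM in siXRN2, 0.235 and 0.774 CPM in siNT and 0.728 and 0.289 CPM in mock, which are counts of 11 and 9, 1 and 4, and 4 and 2 reads. Both siXRN2 libraries lay above all 4 controls in each line, but the LN229 levels were close to what a few reads give. The log2 fold change over siNT was 1.42 ± 0.20 in U251 (edgeR quasi-likelihood test, adjusted p = 0.0218) and 1.69 ± 0.58 in LN229 (adjusted p = 0.108). Over mock it was 1.82 ± 0.21 in U251 (adjusted p = 0.0026) and 1.81 ± 0.54 in LN229 (adjusted p = 0.109). The mean of both lines over siNT was 1.55 ± 0.30 (adjusted p = 0.0238). USP32, the parent, had 105 and 107 CPM in U251 siXRN2, 95.3 and 91.6 CPM in siNT and 101 and 107 CPM in mock. The parent's log2 fold change over siNT was 0.18 ± 0.22 in U251 (adjusted p = 1.00) and 0.69 ± 0.22 in LN229 (adjusted p = 0.0854).

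USP32P3 was also the member whose intron reads passed the test. Its unique intron reads in U251 were 171 and 174 in siXRN2, 82 and 46 in siNT and 45 and 29 in mock. Scaled for depth, as CPM of unique intron reads, they were 368 and 408 in siXRN2, 179 and 121 in siNT and 122 and 65.2 in mock. Both siXRN2 libraries lay above all 4 controls, while siNT and mock overlapped. The share of all genes with such a separation in intron reads was not counted. The intron log2 fold change over siNT in U251 was 1.36 (edgeR quasi-likelihood test, adjusted p = 0.031). It was the 1 called among 84 members with enough intron reads, where 0.0456% of all 10969 genes tested were called. In the mean of both lines 0 of the 84 members passed by edgeR, where 0.146% of all genes did, and the intron value of USP32P3 had an unadjusted p of 0.0186.

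CCDC144CP is annotated as a processed pseudogene of the CCDC144 coiled-coil family, although it has 23 annotated exons. It lies at 20321164 to 20403557 and ends 11990 bases before USP32P3 on the same strand. In U251 it had 43.5 and 40.2 CPM in siXRN2, 13.2 and 14.4 CPM in siNT and 11.9 and 14.0 CPM in mock. In LN229 no library had more than 6 unique exon reads, and its level did not exceed 1.09 CPM. In U251 the siXRN2 libraries lay far above all 4 controls, which were close to each other. The log2 fold change in U251 was 1.60 ± 0.23 over siNT (edgeR quasi-likelihood test, adjusted p = 0.0218) and 1.68 ± 0.23 over mock (adjusted p = 0.0113). In LN229 it was 0.90 ± 0.85 over siNT and -0.39 ± 0.65 over mock (adjusted p = 0.568 and 0.856). Unique intron reads of CCDC144CP in U251, as CPM, were 49.5 and 60.9 in siXRN2, 32.7 and 21.0 in siNT and 54.4 and 24.7 in mock. Unlike its exon reads, they overlapped between siXRN2 and mock. Each of the U251 calls of USP32P3 and CCDC144CP against siNT was lost when any 1 of the 4 libraries was left out, with log2 fold changes of at least 1.34 for USP32P3 and 1.53 for CCDC144CP. With total exon reads, which include reads matching several places, the adjusted p was 0.08 for USP32P3 and 0.0622 for CCDC144CP. Over mock both calls were lost without siXRN2 replicate 2 (adjusted p = 0.075 and 0.19) or mock replicate 2 (0.0774 and 0.0973), and that of CCDC144CP also without siXRN2 replicate 1 (0.215). The call of USP32P3 in the mean of both lines was lost without siXRN2 replicate 2 or siNT replicate 1 of LN229 and without any 1 of the 4 U251 libraries compared (adjusted p from 0.0536 to 0.15).

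**Figure D2:**
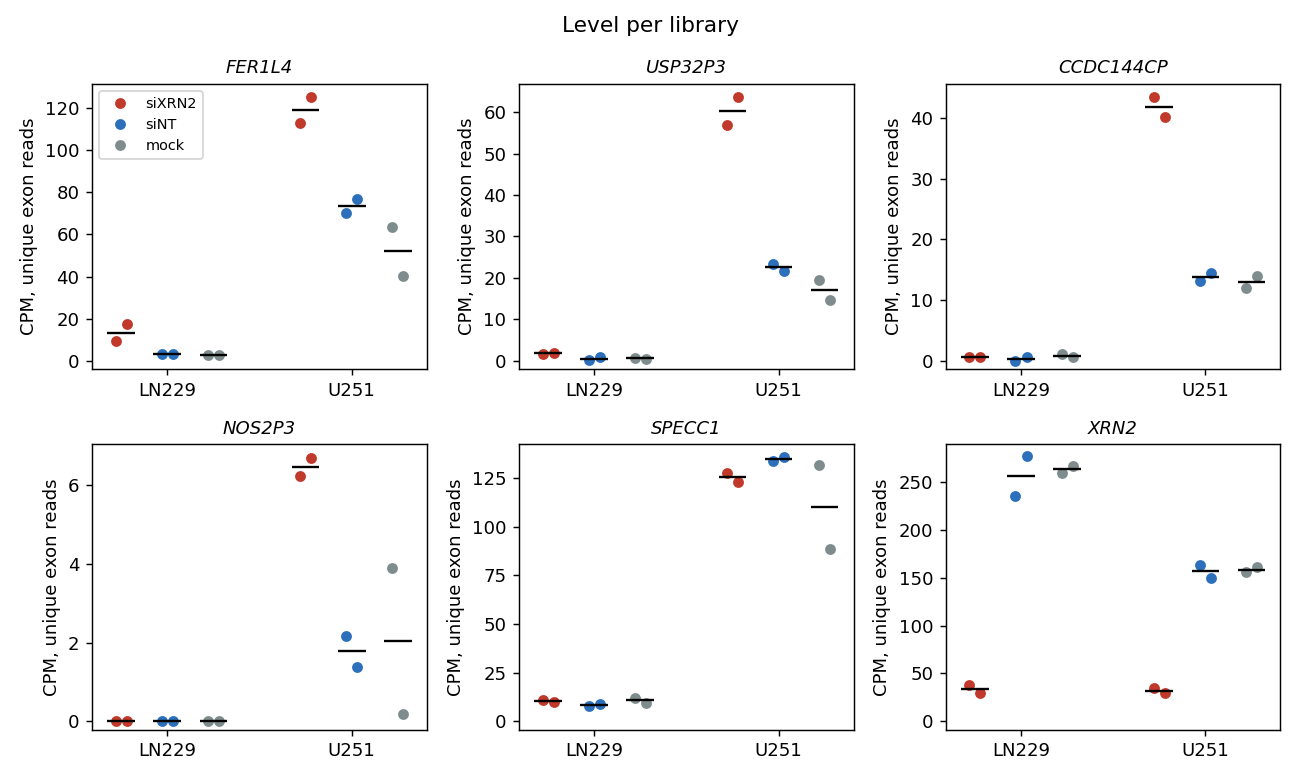
CPM of unique exon reads (vertical axes) in every library of siXRN2 (red), siNT (blue) and mock (grey) for LN229 and U251, with the mean of the 2 libraries as a line. FER1L4 was above its controls in both lines, USP32P3, CCDC144CP and NOS2P3 in U251, where SPECC1 was 123 to 128 CPM in siXRN2, and XRN2 was low in all siXRN2 libraries.

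CCDC144CP and USP32P3 lie in a row downstream of SPECC1 on chromosome 17, and SPECC1 itself did not pass the test. SPECC1, which encodes a coiled-coil protein of the cytoskeleton, ends at 20319026 on the plus strand, and CCDC144CP begins 2138 bases further on. It is followed by USP32P3 and, 5329 bases after that, by NOS2P3, a copy of part of the inducible nitric oxide synthase gene that ranked 147 among the candidates and is no member. In U251 SPECC1 had 128 and 123 CPM in siXRN2, 134 and 136 CPM in siNT and 132 and 88.7 CPM in mock. Its log2 fold change over siNT was -0.11 ± 0.17 (edgeR quasi-likelihood test, adjusted p = 1.00), and 4254 of its 13084 exon reads were unique. NOS2P3 had 6.24 and 6.70 CPM in U251 siXRN2, 2.17 and 1.39 CPM in siNT and 3.91 and 0.182 CPM in mock, and no unique exon read in any LN229 library. The U251 log2 fold change of NOS2P3 over siNT was 1.84 ± 0.68 and did not pass (adjusted p = 1.00). The libraries of NOS2P3 did not overlap between siXRN2 and the controls. SPECC1 in LN229 was at 7.76 to 12.01 CPM in all 6 libraries. Beyond NOS2P3 lies the coding gene LGALS9B, at 20449395 to 20467539 on the minus strand, with 3 unique exon reads in all. Its unique intron reads in U251, as CPM, were 40.9 and 35.1 in siXRN2, 4.36 and 5.26 in siNT and 2.72 and 0 in mock. The libraries mark no strand, so the strand of these intron reads is not known, and their source was not tested.

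**Figure D3:**
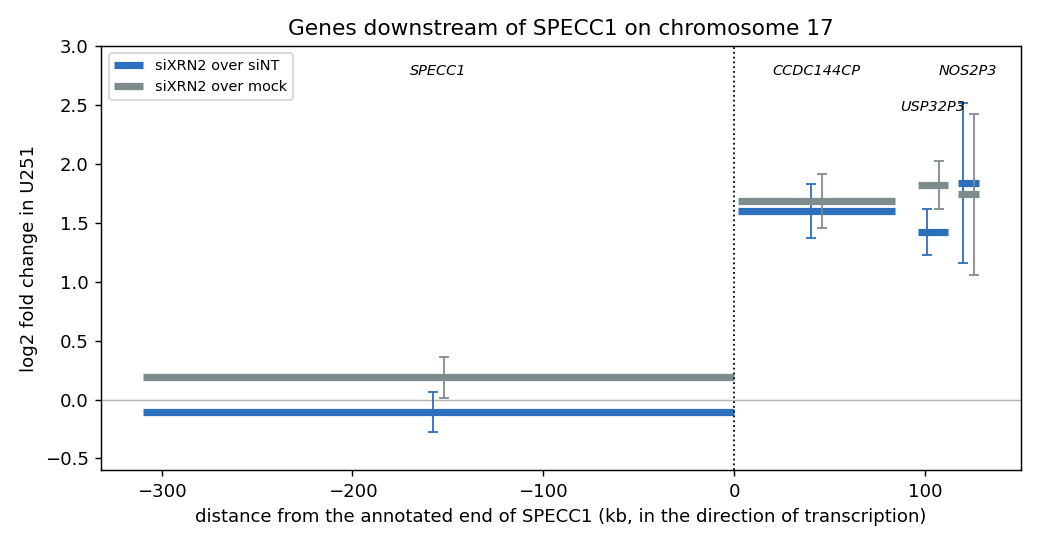
Log2 fold change in U251 (vertical axis, bars ± SE) of siXRN2 over siNT (blue) and over mock (grey) for SPECC1, CCDC144CP, USP32P3 and NOS2P3. Each is drawn over its annotated length on chromosome 17 against the distance from the end of SPECC1 (horizontal axis, kb). SPECC1 lay at -0.11 over siNT, and the genes drawn downstream of it at 1.42 to 1.84.

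This segment has further copies on the same chromosome, and reads that match several copies cannot be assigned. USP32P3 was 98.8% identical to USP32P2 over 1175 bases and 97.9% to USP32P1 over 1171 bases, and CCDC144CP was 98.0% identical to CCDC144B over 2590 bases. NOS2P3 was 99.3% identical over 1659 bases to NOS2P2, which lies outside this row, near 18505772 on the minus strand. By unique exon reads NOS2P2 had a U251 log2 fold change over siNT of 2.55 ± 0.67, against 1.84 ± 0.68 for NOS2P3. Neither passed the test, so a higher value was not particular to the copy behind SPECC1. Exon reads that matched several places, as CPM of all exon reads, were 32.4 and 33.2 at CCDC144A in U251 siXRN2, 14.6 and 12.1 in siNT and 12.9 and 13.4 in mock. At CCDC144B they were 17.7 and 16.1 in siXRN2, 7.02 and 6.20 in siNT and 6.79 and 3.31 in mock. These reads were higher in siXRN2 at both copies without overlap, but they may be the same molecules counted at several copies. At USP32P1 they were 16.4 and 14.9 in siXRN2, 13.9 and 9.14 in siNT and 10.0 and 8.12 in mock. Unique reads of CCDC144A did not exceed 0.217 CPM in any U251 library, so the copies cannot be told apart there.

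6 further members begin within 5 kb downstream of a coding gene on the same strand. They were SMG1P7 (168 bases after EXOSC6), ADCY10P1 (1046 after NFYA), RPL32P3 (1666 after EFCAB12), RRP7BP (1683 after POLDIP3), AFG3L1P (4526 after DEF8) and NSUN5P2 (4695 after TRIM74). Their log2 fold changes of siXRN2 over siNT ran from -0.14 to 0.50 in LN229 and from -0.19 to 0.51 in U251. None of the 6 had an unadjusted p below 0.129 in either line. The values were spread about 0, unlike those of CCDC144CP in U251, and the difference was not tested.

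Over all 100 members, siXRN2 against siNT had a median log2 fold change of 0.13 in LN229 and 0.03 in U251, against -0.01 and 0.01 over all 13094 genes tested. In LN229 the members ran from -1.13 to 2.26 with 66 above 0 and 34 below, and 76 lay within 0.5 of 0. In U251 they ran from -0.76 to 1.60 with 52 above 0 and 46 below, and 88 lay within 0.5. In LN229 1 member was called by edgeR, FER1L4, or 1 in 100, where 3.86% of all genes tested were called in either direction and 1.38% as higher. In U251 2 members were called, where 0.0305% of all genes were, which are 4 genes including XRN2 itself. In the mean of both lines 2 members were called, FER1L4 and USP32P3, where 1.46% of all genes were. Against mock 1 member was called in LN229, FER1L4, where 1.77% of all genes were, and 2 in U251, USP32P3 and CCDC144CP, where 0.0535% of all genes were. The members' share in LN229 lay below that of all genes. The comparisons with siNT and with mock share the siXRN2 libraries. The median over mock was -0.03 in LN229 and 0.02 in U251, so the 0.13 over siNT was not seen over mock. Without LN229 siNT 1 the median over siNT in LN229 was 0.05, with 56 members above 0, against 0.03 over all genes, and without siNT 2 it was 0.30, with 69 above 0, against 0.01.

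Read library by library, both siXRN2 libraries lay above all 4 controls for 12 members in LN229 and 15 in U251, where 15.4% and 14.1% of all genes did. They lay below all 4 controls for 10 members in LN229 and 9 in U251, where 16.8% and 10.1% of all genes did. The members that lay above in both lines were FER1L4 and USP32P3, where 4.42% of all genes did. The members that lay below in both lines were RNF216P1 and SBDSP1, where 4.17% did, and these were singled out after their values were seen. Most members thus separated from their controls no more often than other genes.

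**Figure D4:**
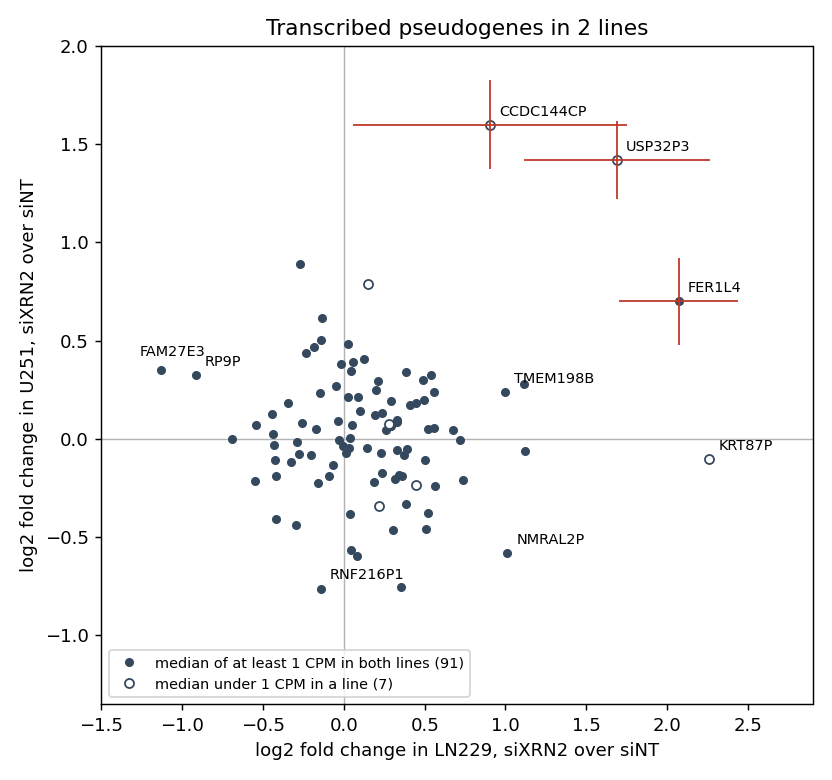
Log2 fold change of siXRN2 over siNT in LN229 (horizontal axis) and in U251 (vertical axis) for the 98 members with reads in both lines, with SE bars on FER1L4, USP32P3 and CCDC144CP. Open circles have a median under 1 CPM in a line. The 3 genes with bars lie apart at the upper right, and KRT87P, which had no read in either LN229 siNT library, lies at the right edge.

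Among members that did not pass, the smallest p-values in LN229 belonged to FAM27E3, TMEM198B, RP9P and AC138932.1. FAM27E3 had 3.72 and 3.22 CPM in siXRN2, 8.94 and 6.55 CPM in siNT and 5.46 and 5.64 CPM in mock (log2 fold change over siNT -1.13 ± 0.31, edgeR adjusted p = 0.0566). TMEM198B, a unitary pseudogene of a membrane protein gene on chromosome 12, had 20.6 and 30.6 CPM in siXRN2, 12.9 and 12.5 CPM in siNT and 21.8 and 11.3 CPM in mock (1.00 ± 0.28, adjusted p = 0.0657). TMEM198B siXRN2 values overlapped with mock. Its annotated span overlaps those of DNAJC14 and MMP19 on the opposite strand, and overlap of exons was not examined. The library kit is of a kind that marks no strand, so reads from any shared stretch cannot be assigned to 1 of the genes. RP9P, a copy of the splicing-associated gene RP9, had 8.07 and 5.43 CPM in siXRN2, 15.1 and 11.0 CPM in siNT and 11.6 and 8.96 CPM in mock (-0.92 ± 0.28, adjusted p = 0.0829). AC138932.1 had 9.46 and 10.3 CPM in siXRN2, 3.29 and 5.58 CPM in siNT and 10.2 and 7.95 CPM in mock (1.12 ± 0.36, adjusted p = 0.0903). Without LN229 siNT 1 the log2 fold changes over siNT were -0.86 for FAM27E3, 1.06 for TMEM198B, -0.64 for RP9P and 0.86 for AC138932.1, with edgeR adjusted p from 0.169 to 0.344. Without siNT 2 FAM27E3, RP9P and AC138932.1 passed, at -1.352, -1.14 and 1.57 (edgeR adjusted p = 0.0123, 0.0185 and 0.0282). In U251 the values next to the called members were 0.70 ± 0.22 for FER1L4, -0.76 ± 0.29 for RNF216P1 and -0.59 ± 0.23 for STAG3L2 (edgeR adjusted p = 1.00 each). RNF216P1, a copy of a ubiquitin ligase gene, had 3.04 and 3.06 CPM in U251 siXRN2, 5.59 and 4.75 CPM in siNT and 5.42 and 6.74 CPM in mock.

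In the mean of both lines TMEM198B had 0.62 ± 0.22, CCDC144CP 1.25 ± 0.44 and ZNF252P, a zinc finger relic, 0.31 ± 0.12 on the log2 scale (edgeR adjusted p = 0.167, 0.168 and 0.187). Against mock the members next to the called ones were, in LN229, USP32P3, ZNF252P (0.48 ± 0.17), AC073869.1 (-0.49 ± 0.18) and NMRAL2P (1.11 ± 0.43), with adjusted p from 0.109 to 0.216. In U251 they were FER1L4, TEKT4P2 (0.85 ± 0.21) and RNF216P1 (-0.998 ± 0.28), with adjusted p from 0.115 to 0.305. TEKT4P2, a copy of the sperm flagellum gene TEKT4, had 16.4 and 14.7 CPM in U251 siXRN2, 13.4 and 11.1 CPM in siNT and 8.46 and 8.74 CPM in mock, where siNT too lay above mock.

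The siXRN2 effect did not differ between the lines for any member by edgeR, where 0 of all 13094 genes passed and 6.8% had an unadjusted p under 0.05. DESeq2 called 0 members, and 7 were under an unadjusted p of 0.05 in edgeR. The smallest p-values for LN229 minus U251 belonged to FER1L4 (1.37 ± 0.44), FAM27E3 (-1.48 ± 0.48), AC241952.1 (0.95 ± 0.32), RP9P (-1.24 ± 0.43) and WASH2P (-1.16 ± 0.47), with adjusted p from 0.707 to 0.714.

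Control siRNA against mock, the background of transfection with an siRNA, called 0 members by edgeR in LN229 and 0 in U251, where 0 of all genes were called in either line. DESeq2 called 0 members in each. At an unadjusted p under 0.05 there were 7 members in LN229 and 3 in U251, where 4.98% and 4.76% of all genes were. Of the 5 smallest p-values in LN229, AC138932.1 had -0.99 ± 0.36, STAG3L2 -0.58 ± 0.22, GTF2IP4 -0.58 ± 0.23, AC132008.2 -0.55 ± 0.19 and RPL23AP82 0.51 ± 0.21 as log2 fold changes of siNT over mock. In U251 FER1L4 had 0.50 ± 0.23, TEKT4P2 0.51 ± 0.21, FAM86DP -0.59 ± 0.28, AC004980.1 -0.77 ± 0.36 and DUXAP10, at under 1 CPM, -2.39 ± 0.96. The U251 siNT values of FER1L4 thus lay above mock, though not past the test (adjusted p = 0.999).

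The 10 members with the most reads were HERC2P2, ZNF37BP, FER1L4, CENPBD1P1, ZNF252P, FAM86DP, AL390728.4, AFG3L1P, ZNF271P and AC241952.1. HERC2P2, a copy of HERC2 on chromosome 15 with 8436 unique exon reads, had 99.1 and 120 CPM in LN229 siXRN2, 81.6 and 104 CPM in siNT and 111 and 102 CPM in mock. In U251 it had 166 and 169 CPM in siXRN2, 164 and 142 CPM in siNT and 142 and 155 CPM in mock. Its siXRN2 values overlapped with the controls in LN229, and its log2 fold change over siNT was 0.23 in LN229 and 0.13 in U251. ZNF37BP, a relic of a zinc finger gene, had 54.3 and 55.1 CPM in LN229 siXRN2, 34.6 and 54.5 CPM in siNT and 54.6 and 51.0 CPM in mock, where only the library siNT 1 stood apart. AL390728.4 had 46.5 and 53.7 CPM in LN229 siXRN2, 28.0 and 51.2 CPM in siNT and 55.3 and 56.1 CPM in mock, with the same library low. FAM86DP, of the FAM86 methyltransferase family, had 66.7 and 52.5 CPM in LN229 siXRN2, 88.7 and 85.7 CPM in siNT and 83.9 and 73.7 CPM in mock. Its siXRN2 values lay below all 4 controls, with a log2 fold change over siNT of -0.54 that did not pass. AFG3L1P, the human relic of a mitochondrial protease gene, stayed at 53.1 to 56.0 CPM in all 6 LN229 libraries and at 14.97 to 19.9 CPM in U251. The remaining CENPBD1P1, ZNF252P, ZNF271P and AC241952.1 had log2 fold changes over siNT between 0.05 and 0.74 in LN229 and between -0.21 and 0.18 in U251. Per kilobase of exon, HLA-DRB6 had the highest mean level with 23.6 CPM per kb, ahead of HERC2P2 with 18.6, AL390728.4 with 18.3 and SBDSP1 with 17.5.

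In several members the 2 siNT libraries of LN229 lay far apart, with siNT 1 the lower. DPY19L2P2, a copy of a membrane protein gene of sperm, had 33.5 and 29.2 CPM in LN229 siXRN2, 11.5 and 32.5 CPM in siNT and 27.6 and 28.9 CPM in mock. LRRC37A4P had 11.02 and 11.7 CPM in siXRN2, 2.59 and 19.1 CPM in siNT and 11.6 and 13.2 CPM in mock. HERC2P3 had 18.6 and 22.9 CPM in siXRN2, 10.1 and 25.6 CPM in siNT and 26.4 and 25.2 CPM in mock. In LRRC37A4P and HERC2P3 the siXRN2 values lay between the 2 siNT values, and in all 3 genes siXRN2 and siNT 2 were closer than siNT 1 and siNT 2. Without siNT 1 the log2 fold change over siNT was -0.01 for DPY19L2P2, -0.71 for LRRC37A4P and -0.27 for HERC2P3, against 0.49, 0.01 and 0.19 with it, none past the test. These 3 were picked after their values were seen. In U251 the library mock 2 stood apart for KRT87P, a keratin pseudogene, with 8.94 and 6.32 CPM in siXRN2, 7.58 and 8.91 CPM in siNT and 7.81 and 19.7 CPM in mock. SBDSP1, a copy of the ribosome maturation gene SBDS, had 12.7 and 14.2 CPM in U251 siXRN2, 21.1 and 15.04 CPM in siNT and 15.6 and 26.6 CPM in mock. In LN229 SBDSP1 had 23.1 and 22.1 CPM in siXRN2, 30.1 and 25.6 CPM in siNT and 27.3 and 27.03 CPM in mock. Its siXRN2 values lay below the controls in both lines, with log2 fold changes over siNT of -0.30 in LN229 and -0.44 in U251, neither past the test, and SBDS had -0.20 and -0.13.

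By kind of pseudogene, the median log2 fold change over siNT in LN229 was 0.12 for the 82 unprocessed, 0.12 for the 10 processed and 0.26 for the 8 unitary members, and in U251 it was -0.01, 0.17 and 0.14. Of the unitary members 7 lay above 0 in LN229 and 7 in U251, a group that holds FER1L4. Of the processed members 6 lay above 0 in LN229 and 8 in U251, a group that holds CCDC144CP. The 29 members with over 95% unique reads had medians of 0.11 in LN229 and 0.05 in U251, and the 23 with under 50% had 0.15 and 0.06. The 22 members on chromosome 7 had medians of 0.06 and -0.12. These medians stand beside medians of -0.01 and 0.01 over all genes, and the counts beside shares of 48.6% and 50.9% of all genes above 0.

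No parent gene passed the test with siXRN2 against siNT in LN229, in U251 or in their mean, of 29 tested. Of all genes tested, 3.86%, 0.0305% and 1.46% did in the same order. Of 44 members whose parent had reads, 9 were above the parent per kilobase and 14 below 10% of it, with a median of 19.5%. These levels divide unique reads by the full exon length, so they are too low where few reads are unique. GTF2IP1 and GOLGA2P7, with unique shares of 6.68% and 8.25%, were among those below 10%. Among those above were copies of TEKT4, CIDEC and ADCY10, parents with means of only 0.0129, 0.101 and 0.169 CPM. HERC2P2 stood at 18.6 CPM per kb, against 8.30 for HERC2, with a log2 fold change over siNT in U251 of 0.13 for HERC2P2 and -0.17 for HERC2. GTF2IP4 had 0.56 and 0.06 in LN229 and U251, and its parent GTF2I had 0.69 and 0.28. RP9P had -0.92 and 0.32, and RP9 had -0.66 and -0.07. RNF216P1 had -0.76 in U251, where RNF216 had -0.01. Of the 41 pairs in which both were tested, member and parent had the same sign over siNT in 30 in LN229, 21 in U251 and 28 in the mean of both lines, which is a description, since pairs share parents and similar sequence.

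In the 6 families with at least 3 members no copy passed the test with siXRN2 over siNT in either line. Of all genes tested, 3.86% passed in LN229 and 0.0305% in U251. The log2 fold changes over siNT were, in LN229, -0.01 to 0.23 for the 3 HERC2P copies, -0.13 to 0.56 for the 4 GTF2IP copies, 0.34 to 0.68 for the 3 GOLGA2P copies, -0.09 to 0.39 for the 4 STAG3L copies of the meiotic cohesin gene STAG3, -0.35 to 0.38 for the 3 copies of ribosomal protein genes and 0.05 to 0.45 for the 6 zinc finger members. In U251 they were -0.22 to 0.13, -0.20 to 0.62, -0.24 to 0.04, -0.59 to -0.19, -0.19 to 0.34 and -0.46 to 0.21 in the same order. The 4 STAG3L copies lay below 0 in U251, with unique shares of 21.8% to 86.1%.

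The cell line separated the pseudogenes far more than the siRNA did. Between LN229 and U251 in mock, 48 of 100 members passed the test, 28 higher and 20 lower in LN229, where 54.6% of all genes tested did, 27.8% higher and 26.7% lower. All 6 libraries of LN229 lay above all 6 of U251 for 21 members and below for 23, where 24.5% of all genes did in each direction. HLA-DRB6, a pseudogene of the class II histocompatibility region, had 60.04 and 49.3 CPM in LN229 mock and no read in any U251 library. With 671 reads in LN229 mock and at most 3 allowed by a count of 0 over U251 mock, it was at least 182-fold higher in LN229 on TMM-scaled depths, for counting error only. AC092070.2 likewise had 89 reads in LN229 mock and none in U251, at least 24.1-fold higher. FAM86DP had 83.9 and 73.7 CPM in LN229 mock, against 6.51 and 11.5 CPM in U251 mock, with a log2 fold change of 3.11 ± 0.22 (edgeR adjusted p = 6.6e-08). AFG3L1P had 1.66 ± 0.17 and DUXAP10, a processed copy of a double homeobox gene, 3.32 ± 0.42 (adjusted p = 2.2e-06 and 1.7e-05).

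The members with the smallest p-values among those lower in LN229 included USP32P3 and FER1L4. USP32P3 had a log2 fold change of -5.07 ± 0.37, TP73-AS1_1 of -2.67 ± 0.20, FKBP9P1 of -3.93 ± 0.30, FER1L4 of -4.19 ± 0.32 and WHAMMP3 of -5.68 ± 0.49 (edgeR adjusted p from 7.6e-08 to 4.0e-07). FKBP9P1, a copy of a prolyl isomerase gene, had 1.46 and 1.45 CPM in LN229 mock, against 20.2 and 24.6 CPM in U251 mock. WHAMMP3, a copy of an actin nucleation gene, had 0.182 and 0.145 CPM in LN229 mock, against 8.03 and 10.8 CPM in U251 mock. CCDC144CP was at -3.97 ± 0.37. So the 3 genes raised by siXRN2 were all much lower in LN229 than in U251, and U251 without siRNA had more FER1L4 RNA than LN229 after XRN2 silencing.

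**Figure D5:**
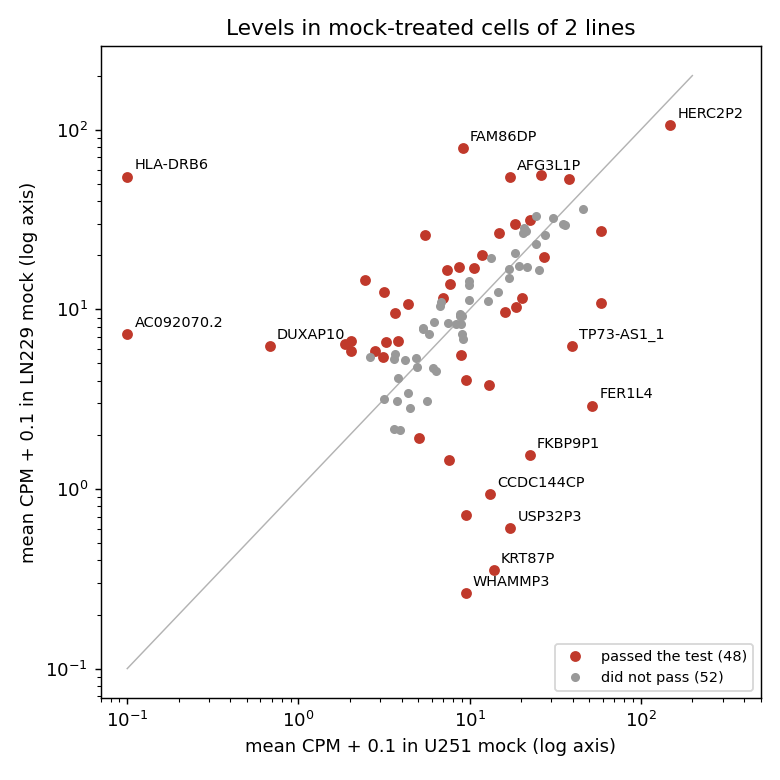
Mean CPM plus 0.1 in LN229 mock (vertical log axis) against U251 mock (horizontal log axis) for the 100 members, with the line of equality. The 48 members in red passed the test between the lines. HLA-DRB6 and AC092070.2 sit at 0 CPM in U251, and USP32P3, FER1L4, WHAMMP3 and FKBP9P1 below the line.

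The members whose levels moved most like the 3 raised genes were found by Pearson's r over the 12 libraries after each line's mean was taken off log2(CPM + 1). For FER1L4 they were USP32P3 (0.81), TMEM198B (0.76) and CENPBD1P1 (0.73). For USP32P3 they were CCDC144CP (0.84), FER1L4 (0.81) and TEKT4P2 (0.72). For CCDC144CP they were USP32P3 (0.84), WASH2P (0.67) and GTF2IP1 (0.65). These are descriptions over libraries that share the silencing of XRN2.

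Genes that act on faulty RNA were measured beside the pseudogenes. Of 17 factors of nonsense-mediated decay, the cytoplasmic pathway that removes RNAs with premature stops, 0 passed by edgeR in LN229, in U251 or in the mean of both lines over siNT, with medians of -0.23, 0.01 and -0.05. Of 15 known targets of that pathway 0 passed, with medians of -0.33, -0.12 and -0.23, against -0.01, 0.01 and 0.00 over all genes tested. The shares of all genes that passed over siNT were 3.86% in LN229, 0.0305% in U251 and 1.46% in the mean. Over mock 0 of the 15 passed too, with medians of -0.21 in LN229 and -0.66 in U251, where 1.77% and 0.0535% of all genes passed. With siNT over mock 0 of the 15 passed, with medians of 0.22 in LN229 and -0.65 in U251, where 0 of all genes passed. Of 27 tested genes of nuclear RNA surveillance and decay, XRN2 fell in each line, and CDKN2AIPNL, which binds XRN2, fell in LN229 to a ratio of 0.607 of siNT (edgeR adjusted p = 0.0463). CDKN2AIPNL had a log2 fold change of -0.24 over mock in LN229 and -0.03 over siNT in U251, neither past the test. The medians of that list were -0.28 in LN229 and -0.03 in U251, against -0.01 and 0.01 over all genes.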

How the data were processed

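The authors deposited 1 table per library with a count of reads per gene, in whole numbers, for exons, junctions and introns, each as unique and as total, per the file headers. Libraries were made with a TruSeq RNA v2 kit, per the labels; this kind of kit selects poly(A) RNA and marks no strand. GRCh37 and hg19 stand in the submitters' processing notes, but 96.8% of the 57836 identifiers found in GENCODE release 29 have its GRCh38 positions there, which are used here. Aligner and counter: not given in the sources used here. Total counts include reads matching several places, so unique exon counts were tested. Genes were kept by filterByExpr (minimum count 10, minimum total 15), which left 13094 and all 100 members, scaled by TMM, and fitted with 1 mean per group over 12 libraries in edgeR 4.0.16 (quasi-likelihood test, R 4.3.3, Benjamini-Hochberg over all genes at 0.05). Sequences were aligned with blastn 2.17.0. The procedure was tested on simulated data. Depth was 4167694 to 6552755 unique exon reads per library; bounds from a count of 0 use 3 reads.

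The members and lists were chosen with earlier results of these data known. Named are FER1L4, USP32P3 and CCDC144CP, the 10 members with the most reads, per comparison the 5 higher and 5 lower called members (or the 5 smallest p where fewer passed), their parents, families of at least 3 copies, the 5 lowest unique shares and the genes at the limit. Alternatives were total exon reads, DESeq2 1.42.0 and its size factors, other filters, a replicate block, other sets of libraries and each library left out. 1 gene of the cell type marker list is not reported here.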

Additional observations from a re-analysis of the deposited data

Results flagged for a closer look

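For 3 named members the siXRN2 libraries of LN229 and of U251 moved in opposite directions relative to their control siRNA libraries, without overlap in either line. The share of all genes with this pattern was not counted, so the number is a description and no result about the members. AC241952.1 had 12.3 and 15.5 CPM in LN229 siXRN2, against 5.64 and 10.6 CPM in siNT, and 59.5 and 56.7 CPM in U251 siXRN2, against 72.9 and 61.5 CPM in siNT (LN229 minus U251, log2 0.95, edgeR adjusted p = 0.712). NMRAL2P had 5.12 and 8.65 CPM in LN229 siXRN2, against 1.88 and 4.62 CPM in siNT, and 1.52 and 2.30 CPM in U251 siXRN2, against 2.89 and 2.77 CPM in siNT (log2 1.59, adjusted p = 0.718). RP9P had 8.07 and 5.43 CPM in LN229 siXRN2, against 15.1 and 11.0 CPM in siNT, and 5.90 and 6.13 CPM in U251 siXRN2, against 5.59 and 3.96 CPM in siNT (log2 -1.24, adjusted p = 0.714). Over mock the siXRN2 log2 fold change in LN229 and U251 was 0.37 and -0.01 for AC241952.1, 1.11 and -0.72 for NMRAL2P, and -0.58 and -0.15 for RP9P, which had the same sign in both lines. None of the 3 differences between the lines passed the test.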

How the results depend on the processing

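Counts are members called of 100. For siXRN2 over siNT in LN229 (1 in the fit reported) they were 2 with DESeq2, 6 with no filter on low counts, 0 with LN229 libraries alone, 0 with the compared groups alone and 2 with mock and control siRNA as control; leaving out 1 library gave 0 to 20, the 20 without siNT replicate 2, when all genes gave 3386 calls, and 0 without siNT replicate 1 or siXRN2 replicate 2. In U251 (2 in the fit reported) they were 0 with total exon reads and 4 with the compared groups alone, and 0 without any 1 library. In the mean of both lines (2) leaving out 1 library gave 0 to 15, and for LN229 minus U251 (0) it gave 0 to 8, with 1 under no filter. Over mock, LN229 (1) gave 2 with no filter, 4 without LN229 siNT 1 and U251 mock 2, an alternative chosen after seeing the data, and 0 to 1 without 1 library, while U251 (2) gave 4 with no filter and 0 to 5 without 1 library. Control siRNA over mock gave 0 to 13 in LN229 and 0 to 1 in U251 without 1 library, and intron reads 0 to 2. LN229 against U251 in mock gave 33 to 40 without 1 library, against 48. The cause was not tested. The called and smallest-p members of each comparison had the same sign under each alternative run. Of all 100 members, 26 had the other sign for siXRN2 over siNT in LN229 without siNT replicate 1, and 11 without siNT replicate 2. Replicate numbers did not pair the samples (correlations of deviations -0.08 to 0.11); with the replicate block the counts were 1 in LN229, 2 in U251 and 2 in the mean over siNT, and 46 between the lines. Where an alternative left 1 library in a group, that library was assumed to vary like the other groups. Low counts limit members under 1 CPM in a line.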
